A study of Mus musculus with 2 samples.

Results

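The genes described here are 10 mouse genes of the motile cilium and of its regulators: Foxj1 and Mcidas, which switch on ciliary genes, Rfx1, Rfx2, Rfx3, Rfx4, Rfx5 and Rfx7 of the regulatory factor X (RFX) family, and Ccdc153 and Dnah5, which are expressed in cells with motile cilia. They were found by symbol in the GENCODE M21 annotation, where all 10 matched, out of 21938 protein-coding genes on the assembled chromosomes. The assay was DNase-seq, which maps open chromatin by sequencing the ends that DNase I leaves where it can reach the DNA. The tissue was the left cerebral cortex of B6CASTF1/J males, hybrids of a laboratory and a castaneus strain, 8 to 10 months old. There were 2 libraries, labelled biological replicates 1 and 2, in 1 group with no treatment and no second tissue, so each SD is over n = 2 libraries and no test between groups was possible. In the labels the libraries share a donor identifier but not a biosample identifier. If the donor identifier stands for 1 animal, the spread between the libraries leaves out variation between animals.

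RFX proteins bind the X-box, an inverted repeat, and RFX2, RFX3 and RFX4 are known for driving genes needed to build cilia. RFX5 is best known as the DNA-binding subunit of the complex that turns on MHC class II genes, while RFX1 and RFX7 are expressed in many tissues. FOXJ1 is a forkhead factor required for motile cilia, and multicilin, the product of Mcidas, starts the programme by which a cell makes many centrioles and many cilia. In the brain such cells are the ependymal cells that line the ventricles and the cells of the choroid plexus, neither of which is a main cell type of cortical tissue. In a bulk library a site open in few cells and a site weakly open in many cannot be told apart.

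Replicates 1 and 2 held 40705 and 39508 peaks in the stricter deposited list, 71210 and 72217 in the broader list, and 166128 and 174394 footprints, short protected stretches inside accessible DNA. Each peak carries a deposited signal value, called its strength here, whose normalization is not given in the sources used here. A promoter peak is a peak overlapping the 1000 bp on either side of any annotated start of a gene.

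Of the 10 genes, 6 had a stricter promoter peak in both libraries (Foxj1, Rfx1, Rfx2, Rfx3, Rfx5 and Rfx7), and 4 had none in either (Rfx4, Mcidas, Ccdc153 and Dnah5). Over all protein-coding genes the share with such a peak in both libraries was 54.9%, so 6 of 10 is close to the background. In the broader list Mcidas joined, giving 7 of 10 against 60.8% of all genes. A footprint lay within 1000 bp of a start in both libraries in the same 7 genes, against 59.0% of all genes. All 10 genes had a stricter peak in both libraries somewhere within the gene or its 10 kb flanks, against 70.4%. For Rfx4, Mcidas, Ccdc153 and Dnah5 these peaks lay away from their own starts, a state found in 12.9% of all genes.

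**Figure D1:**
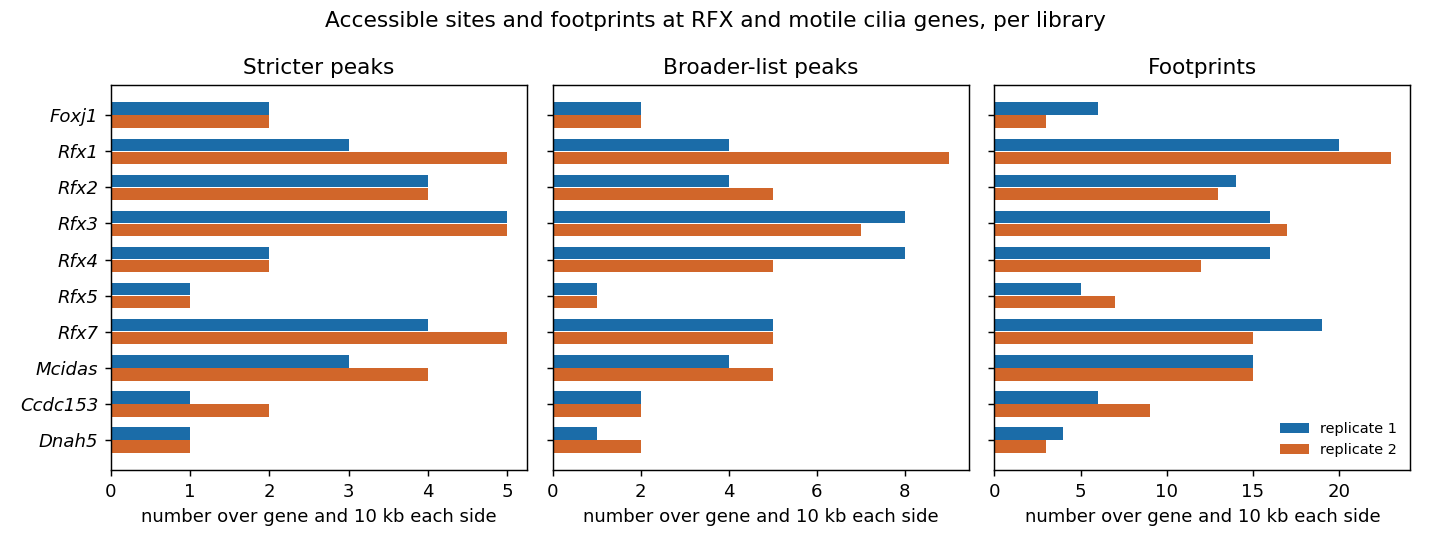
Numbers of stricter peaks (left), broader-list peaks (middle) and footprints (right) across each gene with 10 kb flanks (x axes), with 1 bar per library. Stricter peaks ranged from 1 to 5 per gene, and Rfx1 had the most footprints (20 and 23). At the start of its neighbour Dcaf15, 6 and 5 of these lay in a stricter site and 3 and 1 in a broader-list site. Over gene bodies alone Mcidas had the most in replicate 1 (11, beside 3 for Rfx1) and Rfx1 in replicate 2 (9).

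The number of stricter peaks over a gene and its flanks ranged from 1 (Rfx5 and Dnah5 in both libraries) to 5 (Rfx3 in both libraries, Rfx1 and Rfx7 in replicate 2), beside a median of 2 over all genes. Per 10 kb, the compact Mcidas locus had the highest stricter peak density of the 10, 1.13 in replicate 1 and 1.51 in replicate 2, and Dnah5, a gene of 268 kb, had the lowest, 0.0347 in both. The median over all protein-coding genes was 0.305 and 0.296. Foxj1 (0.81 in both), Rfx1 (0.598 and 0.997), Rfx2 (0.533 in both), Rfx5 (0.364 in both), Rfx7 (0.361 and 0.452) and Ccdc153 (0.376 and 0.751) lay above that median in both libraries. Rfx3 (0.186 in both) and Rfx4 (0.117 in both) lay below it. In short windows 1 peak was enough to exceed the median, as at Rfx5 (27.5 kb) and, in replicate 1, Ccdc153 (26.6 kb). The place beside the median therefore depends on gene length, and no background of genes of like length was read. The densities of Rfx1, Mcidas and Ccdc153 differed between the libraries with SDs of 0.282, 0.266 and 0.266, and part of the peaks of each lay at starts of neighbouring genes.

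Strength of the strongest promoter peak placed Rfx1 and Foxj1 at the top of the 6 genes and Rfx7 at the bottom. Rfx1 reached 6.60 in replicate 1 and 4.58 in replicate 2 (5.59 ± 1.42, mean ± SD), at percentiles 97.7 and 92.9 of the promoter peak strengths of the same library. Foxj1 reached 4.63 and 4.80 (4.71 ± 0.121), at percentiles 85.5 and 94.3. The order of these 2 genes changed between the libraries, so they were not separated. Rfx3 (3.89 and 3.44, 3.67 ± 0.312) and Rfx2 (4.23 and 2.89, 3.56 ± 0.946) followed and also exchanged places. Rfx5 gave 2.55 and 2.02 (2.28 ± 0.376), at percentiles 47.4 and 40.9. Rfx7 gave 1.85 and 1.67 (1.76 ± 0.128), at percentiles 31.1 and 30.4. Rfx5 lay below the other 4 and above Rfx7 in both libraries. This order depends on taking the strongest peak: with the peak nearest to a start Rfx3 gave 0.777 and 0.935, below Rfx5 in both libraries and below Rfx7 (1.13 and 0.796) in replicate 1. The median of the 6 was 4.06 in replicate 1 and 3.17 in replicate 2, beside 2.66 and 2.32 over the 12485 and 12517 genes with a promoter peak. Strength was lower in replicate 2 for 5 of the 6 genes as deposited and for 3 of the 6 after each library was scaled to a common median, so no direction between the libraries was drawn.

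**Figure D2:**
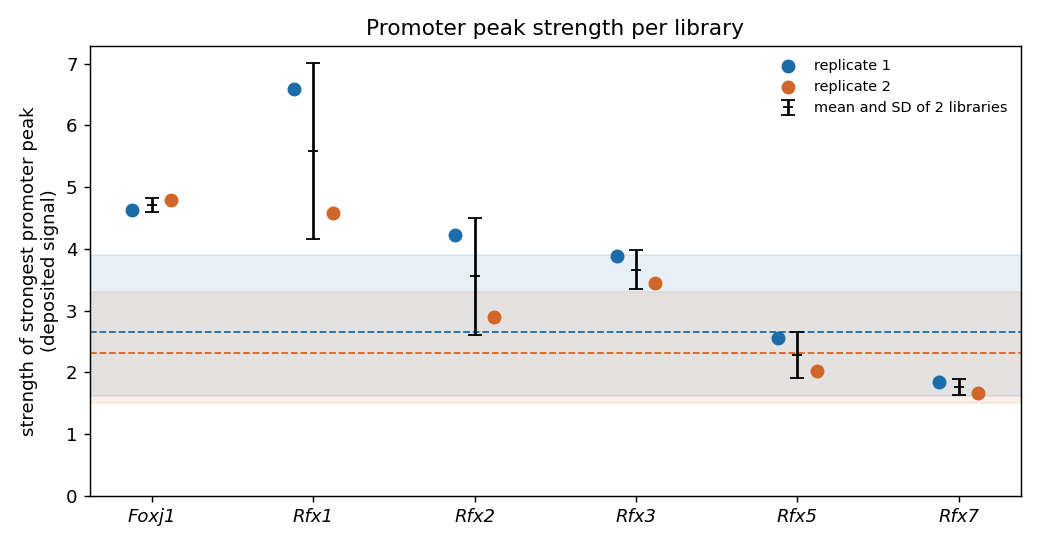
Strength of the strongest promoter peak (y axis, deposited signal) of the 6 genes with a stricter promoter peak in both libraries; points are libraries, bars the mean ± SD of n = 2, dashed lines the medians and bands the interquartile ranges over all genes with a promoter peak (blue, replicate 1; orange, replicate 2). Foxj1 lies above both bands, Rfx1 likewise, and Rfx5 and Rfx7 lie below the medians of their libraries.

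Joining the peaks of both libraries gave 52 accessible sites at the 10 genes. Of these, 23 were in the stricter list of both libraries, 2 of replicate 1 alone and 5 of replicate 2 alone, and 22 were in a broader list only. By their midpoints, 12 of the 23 lay upstream of the gene's first start, 7 in introns, 2 downstream, 1 in a UTR exon and 1 in a coding exon. Some of those counted as upstream span the start, as at Foxj1, Rfx1 and Rfx5, and some lie at starts of neighbouring genes. Rfx2 and Rfx7 had the most sites in both stricter lists, 4 each, and Rfx4 had the most sites in a broader list only, 8 of its 10.

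**Figure D3:**
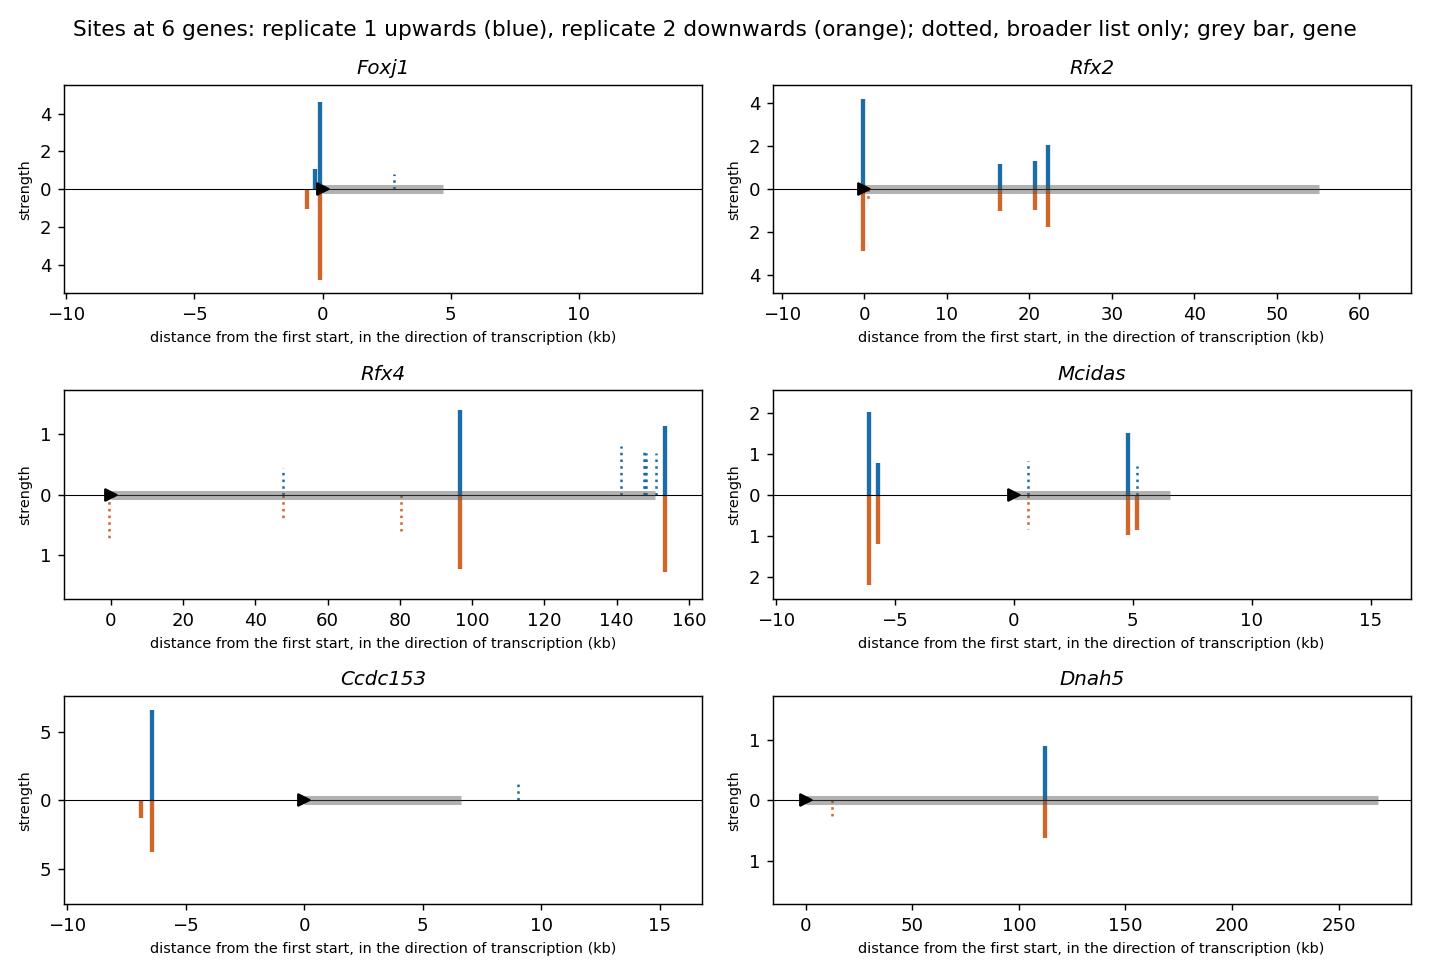
Sites at 6 genes by distance from the first annotated start (x axis, kb, in the direction of transcription) and strength (y axis), with replicate 1 upwards and replicate 2 downwards; dotted lines are in the broader list only and the grey bar is the gene. At Foxj1 and Rfx2 the strongest site is at the start, while at Rfx4, Mcidas, Ccdc153 and Dnah5 no stricter site is.

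Foxj1, the forkhead regulator, spans chr11:116330704-116335399 on the minus strand (mm10) and has 1 annotated start. Its accessibility was concentrated in 1 site spanning that start, chr11:116335361-116335560, with 4 footprints in replicate 1 and 3 in replicate 2. All 3 footprints of replicate 2 overlapped one of replicate 1. A further stricter peak lay 325 bp upstream in replicate 1 alone (1.07, absent from the broader list of that library) and another 581 bp upstream in replicate 2 alone (1.06), so the second promoter peak of the gene was not the same in both libraries. No other coding start lay in the window. The smallest deposited FDR (false discovery rate) within 1000 bp of the start was 1.67e-23 in replicate 1 and 2.39e-29 in replicate 2.

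Mcidas, which encodes multicilin, lies at chr13:112993845-113000394 on the plus strand, next to Ccno, another gene of the multiciliated cell programme, whose start is 5758 bp away. No stricter peak lay at the Mcidas start. A site of the broader list lay 0.6 kb inside the gene, in a coding exon, with a strength of 0.834 in replicate 1 and 0.833 in replicate 2. Within 1000 bp of the start 58 and 85 short intervals had an FDR under 0.05, the smallest 2.91e-03 and 1.44e-03, which is above the 0.001 that every stricter peak reached. The strongest site of the window belonged to Ccno by position: chr13:112987541-112987880, with 2.02 and 2.21, lay 6135 bp upstream of Mcidas. A second stricter site at the Ccno start, chr13:112987901-112988300, gave 0.777 and 1.19. One more stricter site in both libraries, chr13:112998541-112998820, lay in an intron of Mcidas, 4.8 kb from its start, with 1.51 in replicate 1 and 0.972 in replicate 2 and 6 and 3 footprints.

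The sequence of the site at the Ccno start is shown because it was the strongest in the Mcidas window, and it ends before the annotated Ccno exon. Here and in the sequences of sites that follow, the strand is that of the named gene and capitals mark bases under a footprint in both libraries. A match is called under a footprint where a footprint overlaps it by at least 1 bp. A stretch shorter than its site is the part that lies in the stricter peaks of both libraries and outside exons. Bases are the reference, and alleles of the castaneus parent may differ. It holds GTTGCC, the core hexamer of an X-box arm, under a footprint of replicate 2 alone, and a GGGCGG box (SP and KLF factors) under footprints in both.

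Mcidas window, Ccno start, chr13:112987541-112987801, plus strand: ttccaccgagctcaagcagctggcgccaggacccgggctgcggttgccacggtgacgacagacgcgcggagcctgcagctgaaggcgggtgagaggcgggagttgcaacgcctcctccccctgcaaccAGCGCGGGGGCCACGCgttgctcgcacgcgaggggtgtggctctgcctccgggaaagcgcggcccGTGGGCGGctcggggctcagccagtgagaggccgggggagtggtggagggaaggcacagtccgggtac

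Rfx2, a ciliogenic RFX gene at chr17:56775897-56831013 on the minus strand, combined a promoter site with 3 intronic sites, and all 4 were in the stricter lists of both libraries. The promoter site, chr17:56831061-56831400, had 5 and 6 footprints. The intronic sites lay 16.5, 20.7 and 22.3 kb from the first start. The one at 22.3 kb, chr17:56808601-56808820, gave 2.06 and 1.77, with 4 footprints in replicate 1 and 1 in replicate 2. The site at 20.7 kb, chr17:56810161-56810520, gave 1.34 and 0.991. The site at 16.5 kb, chr17:56814401-56814640, gave 1.19 and 1.01. Each intronic site was weaker than the promoter site in both libraries. The only other coding start in the window, that of Prr22, had no promoter peak in either library.

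The promoter of Rfx2 is printed with the 2 intronic sites that hold GTTGCC. The site at 22.3 kb, not printed, holds the looser GTTNCC under no footprint and a CCAAT box under a footprint of replicate 1 alone. In the promoter a GGGCGG box and a CCAAT box lay under footprints in both libraries. A CTCF core (CCANNAG directly followed by NNGGC) did so only in part, the shared footprint bases in it being AGTGGGC.

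Rfx2 promoter, chr17:56831201-56831400, minus strand: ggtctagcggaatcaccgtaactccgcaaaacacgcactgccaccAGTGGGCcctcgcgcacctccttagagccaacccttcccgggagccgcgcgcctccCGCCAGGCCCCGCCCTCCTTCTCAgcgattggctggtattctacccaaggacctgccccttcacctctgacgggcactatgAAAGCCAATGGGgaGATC
Rfx2 intron, 20.7 kb, chr17:56810301-56810480, minus strand: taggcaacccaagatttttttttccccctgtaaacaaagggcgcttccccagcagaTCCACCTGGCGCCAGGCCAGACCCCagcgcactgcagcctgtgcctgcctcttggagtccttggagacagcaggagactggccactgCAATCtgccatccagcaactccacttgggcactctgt
Rfx2 intron, 16.5 kb, chr17:56814442-56814596, minus strand: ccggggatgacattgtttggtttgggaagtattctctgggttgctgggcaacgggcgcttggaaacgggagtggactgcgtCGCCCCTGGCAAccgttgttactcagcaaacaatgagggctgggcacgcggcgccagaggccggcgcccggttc

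The site at 20.7 kb holds GTTGCC on the opposite strand under a footprint of replicate 1 alone, and the forkhead sequence TGTTTAC on the opposite strand under none. The site at 16.5 kb holds GTTGCC on the opposite strand in 2 places, 1 of them under footprints in both libraries. In windows of 300 bp about the promoter peaks of all genes read in replicate 1, the forkhead sequence was found in 2.01%, GGGCGG in 68.4%, the CCAAT box in 38.7% and the CTCF core in 5.14%. In windows of 200 bp, nearer to the length of the printed stretches, these shares were 1.2%, 58.7%, 31.9% and 4.14%. No such share was read for intronic sites.

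Rfx3, the ciliogenic RFX gene with the longest gene body of the family here (chr19:27761721-28011166, minus strand, 249446 bp), had its sites packed around the first start. The strongest, chr19:28011281-28011700, carried 8 footprints in replicate 1 and 9 in replicate 2. It was flanked by a weaker upstream site, chr19:28011761-28012540, with 1.81 and 2.14, and by one over the first exon, chr19:28010361-28011180, with 0.900 and 0.935 and no footprint in either library. Joining peaks within 200 bp of each other reduced the 5 stricter peaks of Rfx3 to 3 in replicate 1 and 1 in replicate 2. Deep in the gene, 231.0 kb from the first start, 1 stricter site was present in replicate 1 alone (0.730).

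Rfx4, which in the brain is known from astrocytes and neural progenitors, is the RFX gene of the 6 without a stricter promoter peak. It spans chr10:84756062-84906538 on the plus strand and has 4 annotated starts. Around these starts, 9 and 24 short intervals had an FDR under 0.05, the smallest 2.73e-02 and 3.40e-02, and 1 broader-list peak of 0.741 was present in replicate 2 alone. Its 2 stricter sites were far from the first start. One lay in an intron at 96.7 kb, chr10:84852621-84852900, with 1.39 in replicate 1 and 1.23 in replicate 2 and 4 footprints in each. The other, chr10:84909368-84909794, lay downstream of the gene at 153.5 kb, with 1.14 and 1.29. Both sites changed little between the libraries, with SDs of 0.114 and 0.106. In the broader list Rfx4 had 8 and 5 peaks, of which 1 at 47.6 kb was outside the stricter lists and present in both libraries, at 0.445 and 0.407.

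The intronic site of Rfx4 is shown as the only stricter site inside the gene; it was the stronger of the pair in replicate 1 and the weaker in replicate 2. It held none of the RFX, forkhead, SP and KLF, NFY or CTCF sequences searched.

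Rfx4 intron, 96.7 kb, chr10:84852621-84852860, plus strand: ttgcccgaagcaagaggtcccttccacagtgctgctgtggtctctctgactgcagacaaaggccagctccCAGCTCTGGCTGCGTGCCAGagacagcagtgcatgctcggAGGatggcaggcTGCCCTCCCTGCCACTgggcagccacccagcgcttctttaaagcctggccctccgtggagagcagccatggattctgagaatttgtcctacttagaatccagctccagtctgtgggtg

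The remaining RFX genes, Rfx1, Rfx5 and Rfx7, had stricter sites at or near the first start. Rfx1 (chr8:84066834-84096992, plus strand) had a promoter site at chr8:84066461-84066880 with 8 and 10 footprints, and a second one in an intron, 0.6 kb from the first start, chr8:84067281-84067500, with 3.98 and 3.76 and 3 footprints in each library. The start of C330011M18Rik, an antisense transcript, lies 451 bp from that of Rfx1, so these sites belong to both genes by position. Another strong site of the Rfx1 window, chr8:84104701-84105200 with 4.63 and 2.99, lay at the start of Dcaf15. Of the 9 broader-list peaks of Rfx1 in replicate 2, 4 weak ones in its introns (0.185 to 0.278) were in neither list of replicate 1. Rfx5 (chr3:94954075-94961561, plus strand), which has 15 annotated starts, had 1 site in all, chr3:94953881-94954260, with 5 and 7 footprints. The stricter peak of replicate 2 spanned this whole site, while that of replicate 1 was only chr3:94954041-94954100. Of the footprints, 1 in replicate 1 and 7 in replicate 2 lay inside the stricter peak. Rfx7 (chr9:72532240-72622937, plus strand) had sites upstream of its first start at chr9:72531341-72531940, with 11 and 9 footprints, and at chr9:72530341-72530540 (1.85 and 1.63). Another, chr9:72532001-72532380 (1.13 and 0.907), spanned that start. Inside the gene, chr9:72532741-72533180 in a coding exon gave 0.806 and 1.06, and chr9:72532521-72532700 gave 0.796 in replicate 2 alone. The start of the long noncoding RNA 4930509E16Rik lies 382 bp from that of Rfx7, and all promoter peaks of Rfx7, 3 in replicate 1 and 4 in replicate 2, also lay within 1000 bp of it.

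The ciliary genes Ccdc153 and Dnah5 showed no accessibility at their own starts by any deposited measure. Neither had a peak of either list, a footprint or an interval with an FDR under 0.05 within 1000 bp of a start in either library. Since the deposited table lists only values under 0.05, accessibility below that limit was not detectable here. Ccdc153 (chr9:44240676-44247306, plus strand) encodes a coiled-coil protein. The strong site in its window, chr9:44234081-44234380, gave 6.61 in replicate 1 and 3.76 in replicate 2, 6446 bp upstream, at the start of Cbl, a ubiquitin ligase gene. No stricter peak lay inside the gene body of Ccdc153. Dnah5 (chr15:28203752-28472052, plus strand) encodes a heavy chain of the outer dynein arm, the motor of the ciliary beat. It had 1 stricter site, chr15:28315901-28316200, in an intron 112.3 kb from the start, with 0.900 in replicate 1 and 0.620 in replicate 2 and 4 and 2 footprints, of which 2 were shared. No other annotated start lay in the Dnah5 window. The sequence is printed as the only stricter site of this gene.

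Dnah5 intron, 112.3 kb, chr15:28315901-28316100, plus strand: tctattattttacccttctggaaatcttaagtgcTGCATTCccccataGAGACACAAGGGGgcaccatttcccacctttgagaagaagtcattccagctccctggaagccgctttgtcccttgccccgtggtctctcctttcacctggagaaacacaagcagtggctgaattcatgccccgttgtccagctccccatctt

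Over the 23 sites of both stricter lists, 57 of 95 footprints of replicate 1 (60.0%) overlapped one of replicate 2, and 59 of 94 (62.8%) the other way. Over all stricter peaks shared by the libraries these shares were 60.4% and 57.1%. The regions differ, since a site joins the peaks of both lists and both libraries while these shares use each library's own stricter peaks. The likeness of the values is therefore only rough. All footprints repeated at the Rfx1 intronic site and at the Rfx7 site 1800 bp upstream. None repeated at the upstream Rfx3 site (2 and 3 footprints) or at the Rfx7 site in a coding exon (1 and 2).

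Matches to the RFX sequence were then read in the genes' own promoters. GTTGCC was searched on both strands in 300 bp about the midpoint of the strongest promoter peak, for genes with a RefSeq promoter entry, and 14.2% of such peaks held it in each library (8938 and 8964 peaks). Of the 5 genes read (Rfx1, Rfx2, Rfx3, Rfx5 and Rfx7), 0 held it in replicate 1 and 2 (Rfx1 and Rfx2) in replicate 2, so that none held it in both. Read over the whole peak, Rfx1 held it in both libraries. In the RefSeq promoter windows (GRCm38.p6, 250 bases before to 50 after a start), which do not depend on the peaks, 5 of 9 genes held it (Ccdc153, Mcidas, Rfx1, Rfx2 and Rfx3) against 12.4% of 20150 windows. The background counts windows and not genes, and Rfx4 has more than 1 window, none of which held GTTGCC. Foxj1 was not read. No footprint covered any of these 5 matches in either library, and only those of Rfx1 and, in replicate 2, Rfx2 and Rfx3 lay in a stricter peak. The full X-box (GTTNCC and, after a gap of 1 to 3 bases, GGNAAC) was in none of the 9, beside 0.730% of all windows. Outside these promoters, the site at the Dcaf15 start in the Rfx1 window held a full X-box with a gap of 2 bases, under no footprint.

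For the matches upstream of the start, 61 bases about the hexamer are printed on the strand of the match, which here is that of the gene, with the hexamer in capitals.

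Ccdc153, chr9:44240498-44240558, plus strand: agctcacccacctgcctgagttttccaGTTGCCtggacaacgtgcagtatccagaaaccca
Mcidas, chr13:112993646-112993706, plus strand: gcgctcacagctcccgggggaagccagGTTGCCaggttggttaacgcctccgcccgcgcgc
Rfx2, chr17:56831091-56831151, minus strand: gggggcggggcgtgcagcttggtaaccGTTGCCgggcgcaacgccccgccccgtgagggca

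Counted from the RefSeq start of each window, the matches begin at -152, -195 and -116 bases. This start can differ from the GENCODE start used elsewhere here, as it does at Mcidas. The promoters of Ccdc153 and Mcidas thus hold the RFX hexamer in DNA without a stricter peak in this tissue, a match being a description of the letters and not evidence of binding.

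The other genes of the pathway were taken from 6 lists. Intraflagellar transport and BBSome genes had a stricter promoter peak in both libraries in 29 of 29 cases, beside 54.9% of all genes, with a median strength of 3.11. The highest were Bbs2 (6.44 and 3.39), Ift140 (5.23 and 3.85, beside the start of Cramp1l) and Ift57 (5.02 and 3.23). The list named for the nexin link, radial spoke and central pair, parts of the motile axoneme, had one in 24 of 29 cases (82.8%). Its median was lower, 1.47. This list also holds genes of other parts of the axoneme, Cfap52 and Enkur among them. All its members are called spoke and nexin genes below. Rsph1, a radial spoke gene, reached 9.69 and 10.7, above every one of the 10 genes described here, followed by Cfap52 (3.85 and 4.36, beside Stx8) and Enkur (4.45 and 3.35, beside Thnsl1), while Drc7, Spag16 and Spag17 had none. Genes for dynein intermediate chains, docking and assembly had one in 15 of 17 cases (88.2%), with a median of 1.91. There the highest were Ccdc151 (5.59 and 4.50, beside Prkcsh), Ccdc103 (4.68 and 4.49, beside Eftud2) and Dnaic1 (4.76 and 3.42, beside Fam219a), and Dnaaf3 had none.

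Axonemal dynein heavy chains, the family of Dnah5, had a stricter promoter peak in both libraries in 7 of 14 cases (50%) and in neither in the other 7, and their median strength of 1.16 was the lowest of the 6 lists. Dnah6 (2.30 and 1.81), Dnah9 (1.64 and 1.53) and Dnah1 (1.25 and 1.68) were the highest, and Dnah12, Dnah14 and Dnah17 had none. Of the multiciliated cell programme, 9 of 14 genes (64.3%) had one, with a median of 2.33. Ccdc78 (5.52 and 5.07, beside Haghl), Cep152 (4.40 and 3.78) and Plk4 (3.83 and 2.71), all genes of centriole formation, were the highest. Foxn4, Trp73 and Gmnc, the last a relative of Mcidas that acts before it, had none in either stricter list, and Gmnc had a weak broader-list peak (0.408 and 0.472). Among other RFX genes and the MHC class II genes that RFX5 regulates, 5 of 9 (55.6%) had one, with a median of 2.79. Rfxank (4.91 and 3.03, beside Borcs8 and Mef2b) and Rfxap (4.28 and 3.63), the partners of RFX5, and H2-Ab1 (2.38 and 3.19) were the highest, while Ciita, the class II coactivator, and Rfx8 had none.

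Neighbouring coding genes share some of these peaks. Another coding start lay within 1000 bp of the promoter peak in 7 of 15 docking and assembly genes, 7 of 29 transport genes, 5 of 24 spoke and nexin genes, 1 of 9 of the multiciliated programme, 1 of 5 of the RFX and class II genes and 0 of 7 heavy chains, beside 22.7% of all genes that had such a peak in each library. The hexamer GTTGCC was in 11 of 25 and 12 of 25 promoter peaks read of the transport genes in replicates 1 and 2 (44.0% and 48.0%), in 11 of 21 and 11 of 20 of the spoke and nexin genes, and in 3 of 7 of the heavy chains in each library, beside 14.2% of all peaks read. It was in 4 of 10 and 5 of 10 of the docking and assembly genes, in 2 of 8 and 1 of 6 of the multiciliated programme, and in 1 of 3 and 1 of 4 of the RFX and class II genes. The full X-box was in 3 of 25 transport genes in both libraries (Arl3, Bbs7 and Ift57) and in 1 of 10 docking and assembly genes (Ccdc151) in replicate 1 alone, beside 1.09% and 0.993% of all peaks read, and in no other list. These shares are descriptions of the lists, which were not tested.

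**Figure D4:**
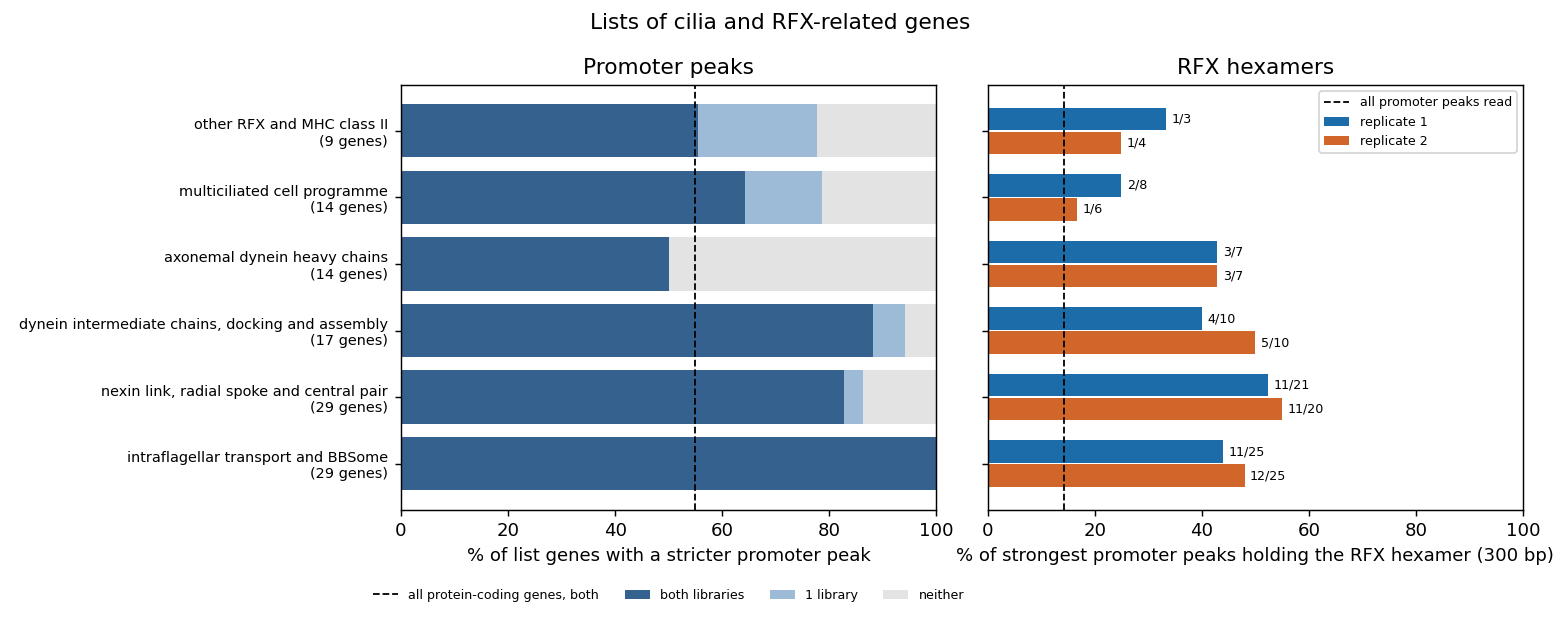
For each of 6 gene lists, the share of genes with a stricter promoter peak in both, 1 or neither library (left, x axis in percent) and the share of the strongest promoter peaks read that hold GTTGCC, the RFX hexamer, in 300 bp (right, x axis in percent, 1 bar per library). The left dashed line is the 54.9% of all protein-coding genes and the right one the 14.2% of all peaks read; on the left, transport genes reach 29 of 29 and heavy chains 7 of 14.

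Markers of the cell types that the tissue could hold were read in the same way. Beside 54.9% of all genes, a stricter promoter peak in both libraries was present at 4 of 6 excitatory neuron markers, 2 of 6 astrocyte and 2 of 6 oligodendrocyte markers, and at 0 of 5 inhibitory neuron, 0 of 5 microglia and 0 of 5 endothelial markers. Of 10 ependymal markers 2 had one, Dynlrb2 (3.02 and 1.67) and Pifo (0.635 and 0.50), and of 7 choroid plexus markers 0 had one. In the broader list, beside 60.8% of all genes, the counts were 4 of 6 for excitatory neuron, astrocyte and oligodendrocyte markers alike, 3 of 5 inhibitory neuron, 0 of 5 microglia, 1 of 5 endothelial, 3 of 10 ependymal and 1 of 7 choroid plexus markers. Ependymal and choroid plexus markers were thus mostly without promoter peaks, and how far such cells add to the values of Foxj1 and the other genes was not tested.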

How the data were processed

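DNase-seq was done on 2 libraries of left cerebral cortex. Per the notes deposited with the files, the authors called peaks on each library alone against mm10; peak caller: not given in the sources used here, and likewise the aligner. Peak strength is the deposited signal value, with no normalization stated. The authors' FDR table holds values of the q-value kind, under 0.05. Every stricter peak held an interval at 0.001 or less and every broader one at 0.05 or less. The other value column, that of the footprints, is constant in the deposited files and was not used. Read depth was not analysed here, so no interval from counting error is given.

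Genes and starts were from GENCODE M21 and sequence from RefSeq GRCm38.p6, whose coordinates match mm10. Overlap meant at least 1 bp (bedtools 2.31.1, pandas 2.3.3, pysam 0.24.0), and windows reached 10 kb beyond each gene. Percentiles were taken among the strongest promoter peaks of all protein-coding genes of the same library. Promoter sequences were found for 9 of 10 genes, and Foxj1 is named only. The peaks read for motifs were those of genes with such an entry. On both strands 13 patterns were searched, GTTGCC and its looser form GTTNCC (RFX, overlapping each other and the X-boxes), X-boxes with gaps of 1, 2 or 3 bases, TGTTTAC (forkhead), GGGCGG (SP and KLF factors), CCAAT (NFY), CCGGAAG (ETS factors), the NRF1 site, the CRE, the E2F site and the CTCF core. Overlap, joining and motif steps were tested on simulated data.

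The genes and lists were chosen with earlier results of these data known. Chosen after values were seen were the printed sequences, the restriction to genes with a RefSeq entry, the hexamer counts in the lists, the RefSeq window scan and the counts of other coding starts. All 10 genes were named. Of each list, the 3 with the highest mean strength and the first 3 by alphabet without a promoter peak in either library were named, with neighbours whose starts lie in a window or at a promoter peak. Genes named with a GTTGCC or X-box match, and the 2 ependymal markers, are named as members of small counts. No p-value was computed.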

Additional observations from a re-analysis of the deposited data

How the results depend on the processing

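Of 216 alternative values, 162 stayed within the limits set for them and 54 moved. The limits were a set ratio for counts and 1 SD of the 2 libraries for strength. The strength of a single gene cannot leave that SD when a replicate is left out, so those values stayed by construction. The count of genes with a promoter peak in both libraries stayed at 6, the same 6 genes, with 500 or 2000 bp from a start, the strongest 50% of peaks, midpoints, coding transcripts alone or either library alone, and was 7 in the broader list. The stricter peaks summed over the 10 genes (28.5, mean of the libraries) became 16 over gene bodies alone, 59 with 50 kb on each side and 17.5 with the strongest 50% of peaks, and ranged from 26 to 31 when a replicate was left out. Summed footprints (119) became 45 over gene bodies and 231.5 with 50 kb. The median promoter strength of the 6 genes (3.61) became 2.92 with the peak nearest to a start. Genes holding GTTGCC in the promoter peak of both libraries (0) became 1 with whole peaks, 1 with GTTNCC, and 0 to 2 when a replicate was left out. Window counts therefore follow the size of the window by construction. No paired analysis was possible because there is 1 group. With 2 libraries the SDs are rough, and at Ccdc153 and Dnah5 accessibility short of the FDR limit of the deposited table would not be seen.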
